A study of Homo sapiens with 6 samples.

Results

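The genes for 8 RNA-binding proteins tied to the perinucleolar compartment were followed in human embryonic stem cells after knockdown of alpha satellite RNA. They were PTBP1, PTBP2, PTBP3, CELF1, KHSRP, RALY, MATR3 and HNRNPL, chosen by name from the deposited gene count table, and all 8 had a row among the 53719 gene rows. The cells were H9, an established human embryonic stem cell line, grown in RSeT, a commercial medium for a naive-type state. In the knockdown group the cells carried a gapmer against ALR, the RNA copied from the alpha satellite repeats of human centromeres, and in the control group they carried a control gapmer. A gapmer is an antisense oligonucleotide with a DNA centre that lets RNase H cut the paired RNA. Total RNA was taken 48 h after transfection, and each group had 3 libraries, lettered a, b and c. The series title names alpha satellite RNA, the perinucleolar compartment and ribosomal RNA, so the comparison asked whether the messages for the compartment's proteins differed when ALR was targeted. ALR RNA itself was not analysed here, so the values below carry no check of the knockdown.

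The perinucleolar compartment is a small nuclear body at the edge of the nucleolus, best known from cancer cells. It concentrates short RNAs made by RNA polymerase III together with proteins that bind pyrimidine-rich RNA. PTBP1, the polypyrimidine tract-binding protein that represses many exons, is the protein most often used to see it. PTBP2 and PTBP3 are its paralogues. CELF1 and KHSRP bind GU-rich and AU-rich RNA and act in splicing and message decay. RALY is a relative of the heterogeneous nuclear ribonucleoprotein (hnRNP) C proteins, HNRNPL binds CA-rich RNA and regulates splicing, and MATR3 (matrin 3) is a nuclear matrix protein that binds PTBP1.

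The 3 PTBP genes share an internal exon of 34 bases, shown here because it is the switch through which PTBP1 is known to act on its own message and on that of PTBP2. PTBP1 protein favours skipping of this exon in PTBP1 and PTBP2 messages. As the length leaves a remainder of 1 on division by 3, skipping shifts the reading frame, and the skipped message can be destroyed by nonsense-mediated decay. The sequences are given 5′ to 3′ on the coding strand from GENCODE release 29 transcripts (GRCh38), and capitals mark the bases identical in all 3 genes.
PTBP1: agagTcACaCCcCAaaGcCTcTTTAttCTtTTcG
PTBP2: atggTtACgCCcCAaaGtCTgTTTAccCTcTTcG
PTBP3: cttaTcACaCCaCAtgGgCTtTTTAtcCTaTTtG
The PTBP1 exon lies at chr19:807869-807902 on the plus strand, the PTBP2 exon at chr1:96806419-96806452 on the plus strand, and the PTBP3 exon at chr9:112231380-112231413 on the minus strand. PTBP1 and PTBP2 had the same base at 25 of the 34 positions, PTBP1 and PTBP3 at 22, PTBP2 and PTBP3 at 21, and all 3 genes at 19. The annotation held 5 PTBP1 transcripts and 3 PTBP2 transcripts that extend past this exon on both sides without holding it, and 0 such PTBP3 transcripts. Whether they join its neighbouring exons was not checked. Of these, 3 PTBP1 and 0 PTBP2 transcripts were annotated as protein-coding, and 2 PTBP1 and 0 PTBP2 transcripts as subject to nonsense-mediated decay. PTBP3 has a further exon of 34 bases at chr9:112330441-112330474, which matched the PTBP1 exon at 6 positions and was not taken as its counterpart, and 5 PTBP3 transcripts leave that one out. The deposited values count reads per gene, so inclusion of this exon was not measured and only the sum of included and skipped messages is reported.

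By position in the same annotation, PTBP1 (ENSG00000011304.19) spans chr19:797075-812327 on the plus strand and KHSRP (ENSG00000088247.17) chr19:6413348-6424794 on the minus strand. HNRNPL (ENSG00000104824.17) spans chr19:38836388-38852347 on the minus strand, so 3 of the 8 genes sit on chromosome 19. PTBP2 (ENSG00000117569.18) spans chr1:96721665-96823738 on the plus strand and MATR3 (ENSG00000015479.18) chr5:139293648-139331677 on the plus strand. PTBP3 (ENSG00000119314.15) spans chr9:112217716-112333667 on the minus strand. CELF1 (ENSG00000149187.18) spans chr11:47465933-47565569 on the minus strand, and RALY (ENSG00000125970.11) chr20:33993646-34108308 on the plus strand. The genes fell into short and long spans: KHSRP, PTBP1 and HNRNPL covered 11447, 15253 and 15960 bases, MATR3 38030 bases, and CELF1, PTBP2, RALY and PTBP3 99637 to 115952 bases. Exons of CELF1 share 140 bases with PTPMT1 and 234 bases with NDUFS3, both on the opposite strand, and exons of HNRNPL share 561 bases with AC008982.1 on its own strand. Counts of these genes could therefore include or lose some reads of a neighbour, and MATR3 has a further gene model of the same name (ENSG00000280987.4). By name, the annotation also holds 1 pseudogene of PTBP1, 1 of KHSRP and 2 of HNRNPL, and 0 of the other members. How reads shared with these copies were counted is not known.

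Library totals ran from 25087629 to 36576752 counts, and 19721 genes passed the filter on low counts. Knockdown library a stood apart in the number of rows with a count, 29678 against 25898 to 26788 in the other libraries. Each of the 8 genes had 3410 to 22359 counts in every library. Of the pluripotency markers, LIN28A was at 1541 ± 18.2 CPM (depth-normalised counts, scaled by TMM) in the controls, TDGF1 at 548.0 ± 13.62, NANOG at 180.7 ± 5.21 and POU5F1 at 99.8 ± 13.3 (SD, n = 3 libraries). SOX2, a gene that pluripotent cells rely on, was listed at 0 in all 6 libraries, so a listed 0 is not read as absence here. Among the naive-state markers, KLF17 was at 0.0766 ± 0.0427 CPM in the controls, under the 0.12 CPM that a count of 0 allows in the shallowest library. DPPA5 was at 0.999 ± 0.210 and DNMT3L at 2.33 ± 0.700 CPM, whereas KLF4 was at 17.9 ± 1.30 and TFCP2L1 at 27.0 ± 2.77. So by control mean, KLF17 alone of the 5 naive-state markers was under that limit, which is that of knockdown library c. In the order a, b, c, KLF17 had 3, 3 and 1 counts in the controls and 10, 4 and 1 in the knockdown. Of the primed-state markers with counts, SFRP2 was at 75.2 ± 3.2 CPM in the controls, ZIC2 at 11.5 ± 1.97 and DUSP6 at 10.5 ± 0.41. Which state the cells were in was not tested. The labels do not say whether a, b and c were separate cultures, so p-values measure the spread between these libraries only.

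All 8 genes were abundant, between the 90.1 and the 99.4 percentile of the genes tested by CPM. Levels between genes were compared as CPM per kilobase (kb) of annotated exon, in the controls. KHSRP was highest at 74.3 ± 4.79, followed by PTBP1 at 65.8 ± 3.23, MATR3 at 51.7 ± 2.18 and CELF1 at 42.8 ± 1.78. HNRNPL followed at 33.2 to 35.1 over its 3 control libraries. PTBP3 (27.4 ± 1.71) and PTBP2 (27.2 ± 0.728) came next, and RALY was lowest at 16.6 ± 0.350 (all SD, n = 3). Every neighbouring pair in this order was separate in the control libraries except PTBP3 and PTBP2, whose libraries overlapped. With the longest transcript as the length, HNRNPL (75.0 CPM per kb) moved above CELF1 (58.3), so the place of these 2 depends on which isoforms are read. PTBP2, known as the form that dominates in neurons, was thus well expressed in these stem cells, at 26.5 to 27.95 CPM per kb in the control libraries against 62.7 to 69.2 for PTBP1.

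**Figure D1:**
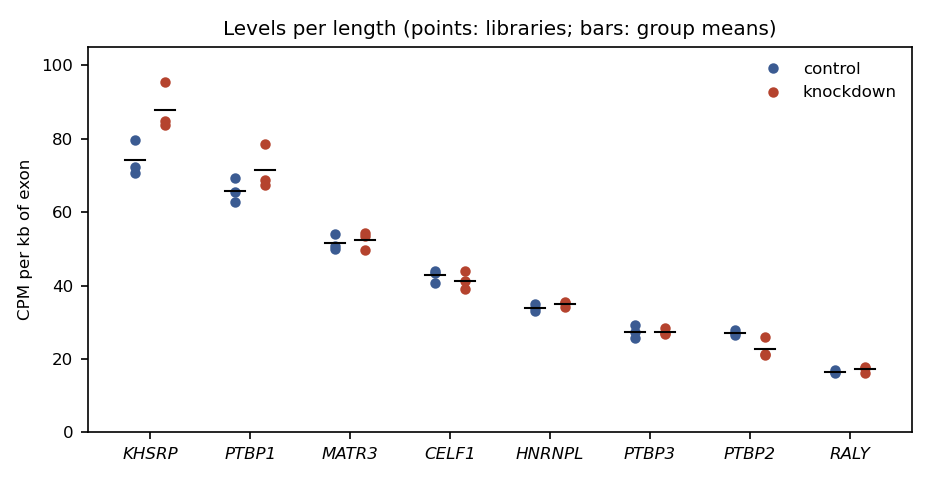
Level of each gene in CPM per kb of exon (y axis) for the 3 control and the 3 knockdown libraries (points), with group means (bars). KHSRP and PTBP1 lead in both groups, RALY is lowest, and the knockdown points of PTBP2 (21.0 to 26.0) lie below those of PTBP3, which is close to it in the controls.

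In the comparison of knockdown with control, none of the 8 genes passed the adjusted threshold of 0.05. Over all genes tested, edgeR's quasi-likelihood test called 155 of 19721, which is 0.786%. At an unadjusted p under 0.05, PTBP2 was lower and KHSRP higher, 2 of 8 genes against a background of 14.3% of all genes. The same 2 genes were the ones whose groups did not overlap in CPM, against a background of 18.9%. DESeq2's Wald test called both at the adjusted threshold (background 2.72%), as did edgeR without the low-count filter (background 3.29%), while limma-voom called 0 of the 8. The estimates were above 0 for 6 genes and below 0 for 2, although PTBP3 turned below 0 with DESeq2's size factors and MATR3 and HNRNPL did so once the trend of values on gene span was removed. Their median log2 fold change was 0.03, beside 0.02 for all genes tested. The median size of the change regardless of sign was 0.05 for the 8 genes, so most of them lay close to their control level. It was 0.13 for all genes, but these include genes with few counts and wider errors. The medians were not matched for level, so they do not show that the 8 genes were unusually stable.

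**Figure D2:**
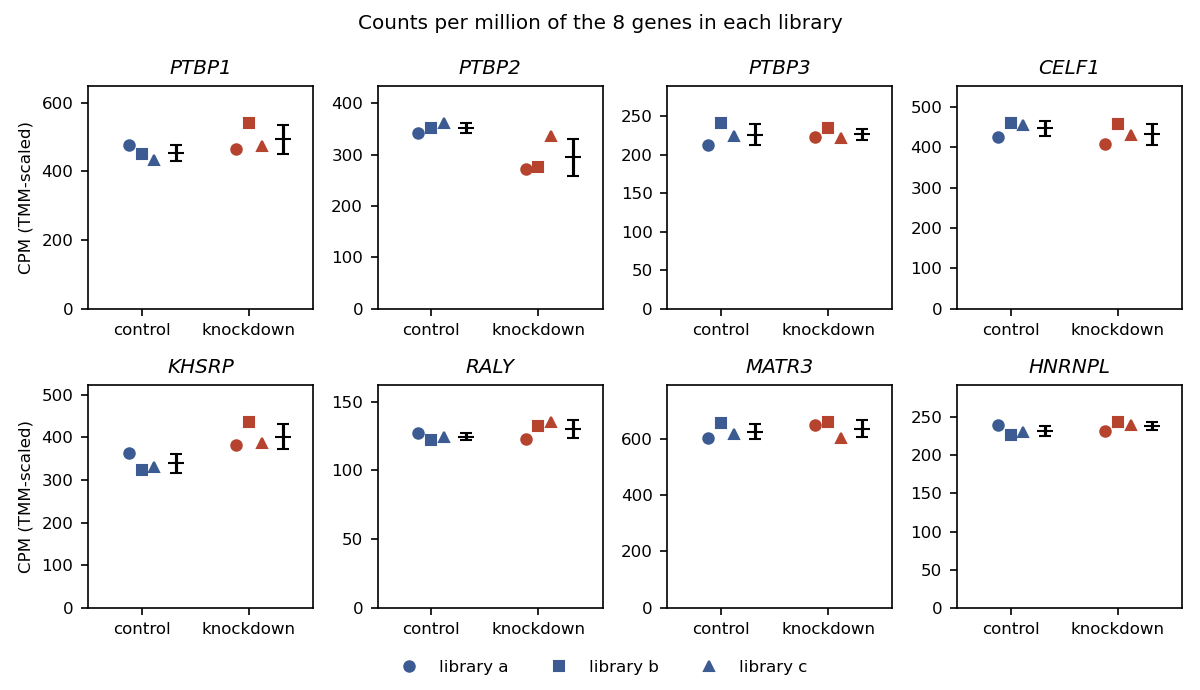
CPM of each gene (y axis, from 0, TMM-scaled) in the control and knockdown libraries, with symbols for libraries a, b and c and black bars for the mean ± SD. Only PTBP2 and KHSRP have groups that do not overlap, and the knockdown library c of PTBP2 lies near its controls.

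Among the PTBP paralogues, PTBP2 had the lowest estimate. In the order a, b, c, which holds for all values below, PTBP2 stood at 271.3, 275.9 and 336.8 CPM in the knockdown and at 342.7, 352.0 and 361.6 CPM in the controls. Libraries a and b of the knockdown were well below every control, whereas library c lay just under the lowest control. The means were 294.7 ± 36.6 and 352.1 ± 9.42 CPM (SD, n = 3), a difference of -16.3%. The log2 fold change was -0.26 ± 0.08 (SE), with a 95% interval from -0.44 to -0.07 and an adjusted p of 0.196. Without knockdown library c it was -0.38 with an adjusted p of 0.00184, in a fit where 6.40% of genes were called. The direction was the same in 15 of 15 alternative settings, of which 3 passed the threshold, and the adjusted p ranged up to 0.566.

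PTBP1 showed no separation of the groups. Its CPM values were 464.6, 540.4 and 473.6 in the knockdown libraries and 476.2, 451.0 and 431.8 in the controls. Knockdown library b alone was above all controls. The means were 492.9 ± 41.5 and 453.0 ± 22.3 CPM, and the log2 fold change was 0.12 ± 0.08 (95% interval -0.04 to 0.29, adjusted p = 0.503). Without knockdown library b the estimate was 0.04. PTBP3, a paralogue first described in blood cells, was nearly level, with 223.2, 234.4 and 221.6 CPM in the knockdown and 212.8, 240.8 and 224.3 CPM in the controls. Its log2 fold change was 0.00 ± 0.07, with an interval from -0.14 to 0.15.

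Because the paralogues are counted in the same library, their ratio needs no scaling between libraries. The ratio of PTBP2 to PTBP1 counts was 0.584, 0.511 and 0.711 in the knockdown libraries and 0.720, 0.781 and 0.837 in the controls. All knockdown ratios were below all control ratios, by a narrow margin for library c. The mean was 0.602 ± 0.102 against 0.779 ± 0.0588, a log2 difference of -0.38 (two-sided exact permutation p = 0.10, the smallest that 3 against 3 libraries can give). The ratio of PTBP3 to PTBP1 was 0.461 ± 0.0243 against 0.5001 ± 0.0467, with overlapping groups and a log2 difference of -0.12 (exact permutation p = 0.30). As a share of the counts of the 3 genes, PTBP2 made up 26.3% to 32.6% in the knockdown and 33.2% to 35.5% in the controls. PTBP1 made up 45.9% to 51.4% and 42.4% to 46.2%, and PTBP3 21.5% to 23.3% and 20.6% to 23.1%. So the PTBP2 shares were apart between the groups, while those of PTBP1 and PTBP3 overlapped. The CPM, ratio and share of PTBP2 all rest on the same PTBP2 counts and are not independent results. How often the ratio of other gene pairs separates the groups was not counted.

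**Figure D3:**
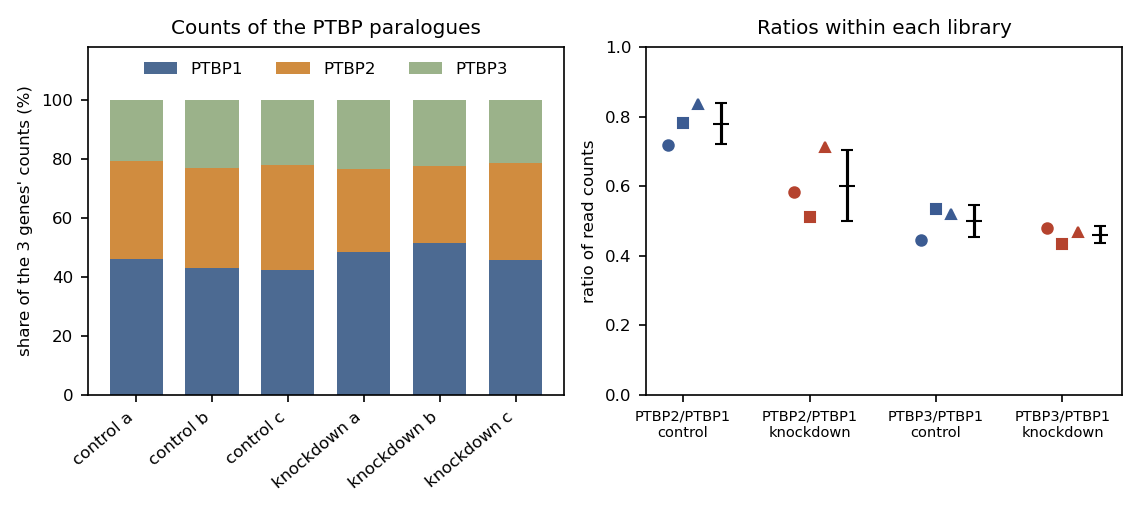
Left, share of the counts of PTBP1, PTBP2 and PTBP3 taken by each gene in every library (stacked bars, percent). Right, count ratios to PTBP1 within each library (circle, square and triangle for libraries a, b and c; blue control, red knockdown; black bars mean ± SD), where the PTBP2 ratios do not overlap between groups and the PTBP3 ratios do.

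Of the genes acting in message decay, KHSRP had the highest estimate. KHSRP, which recruits decay enzymes to AU-rich messages and promotes maturation of some microRNAs, was at 382.0, 435.1 and 386.7 CPM in the knockdown and 363.9, 322.8 and 330.2 CPM in the controls. Each knockdown library was above each control, with the closest pair being the libraries lettered a. The means were 401.3 ± 29.4 and 339.0 ± 21.9 CPM, a difference of 18.4%. The log2 fold change was 0.24 ± 0.08 (95% interval 0.08 to 0.41), and the adjusted p was 0.174. Its direction was the same in 15 of 15 alternatives, 2 of which passed the threshold, and the estimate ran from 0.18 to 0.30. Removing the trend of each library's values on gene span gave 0.19 (adjusted p = 0.323) for KHSRP, a short gene, and -0.26 (adjusted p = 0.219) for PTBP2, a long one.

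CELF1, which binds GU-rich elements and is known for its part in myotonic dystrophy, did not separate. It was at 407.3, 458.9 and 430.1 CPM in the knockdown and 425.8, 460.2 and 455.2 CPM in the controls. The spread within each group was wider than the gap between the means (432.1 ± 25.9 and 447.1 ± 18.6 CPM). The log2 fold change was -0.05 ± 0.07, with an interval from -0.20 to 0.10 and an adjusted p of 0.796.

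RALY, MATR3 and HNRNPL, the hnRNP-type and nuclear matrix proteins, had overlapping groups. RALY was at 122.6, 132.0 and 134.9 CPM in the knockdown and 127.3, 122.1 and 124.5 CPM in the controls (log2 fold change 0.06 ± 0.06, interval -0.08 to 0.20). Knockdown libraries b and c were above every control, and library a was within their range. MATR3, the most abundant of the 8 by CPM, was at 646.7, 657.5 and 601.8 CPM in the knockdown and 603.7, 654.1 and 615.5 CPM in the controls. Library b was the highest of its group in both, and the log2 fold change was 0.03 ± 0.07 (interval -0.12 to 0.17). HNRNPL was at 232.2, 243.2 and 239.6 CPM in the knockdown and 239.2, 226.1 and 230.4 CPM in the controls (log2 fold change 0.04 ± 0.06, interval -0.09 to 0.17). For these 3 genes, changes beyond 0.20 on the log2 scale in either direction lay outside the 95% intervals.

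The 8 genes together made up 2825, 2948 and 2846 CPM of all counts in the knockdown libraries and 2752, 2802 and 2755 CPM in the controls. The groups did not overlap, and the difference of means was 103.9 CPM (2873 ± 66.0 against 2769 ± 27.99, exact permutation p = 0.10, the smallest possible). With TMM-scaled library sizes the difference was 52.8 CPM (exact permutation p = 0.70), so the gap depends on how libraries are scaled. Without knockdown library b it was 66.3 CPM (exact permutation p = 0.20, the smallest possible once a library is left out). In RNA from a whole culture, fewer cells of a type and less RNA per cell cannot be told apart.

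Across the 6 libraries, PTBP1 and KHSRP moved most alike among the 8 genes, with a Pearson r of 0.90 between their log2 CPM. PTBP2 ran against KHSRP (r = -0.78) and against PTBP1 (r = -0.66). KHSRP and HNRNPL had r = 0.86, RALY and HNRNPL 0.86, and PTBP3 and MATR3 0.81. These are descriptions over 6 libraries that share the group difference and the scaling. Among 8994 genes with a mean count of at least 500, the pattern most like PTBP2 was that of MEF2A, a transcription factor of muscle and neurons (r = 0.999), then RNF149 (0.997). The closest to KHSRP were CHD3, a chromatin remodeller (0.998), and PNPLA6 (0.997). The closest to PTBP1 were EIF3D, a translation initiation factor (0.997), and RND2 (0.995). For PTBP3 they were ACAP2 (0.995) and ZNF337 (0.986), for CELF1 NARF (0.984) and RQCD1 (0.984), and for RALY INPPL1 (0.991) and RYR1 (0.988). For MATR3 they were PSMD1 (0.995) and GTF3C4 (0.994), and for HNRNPL TRMT61A (0.993) and PFKL (0.993). As each was the best of 8994 genes, a high r is built into the choice.

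**Figure D4:**
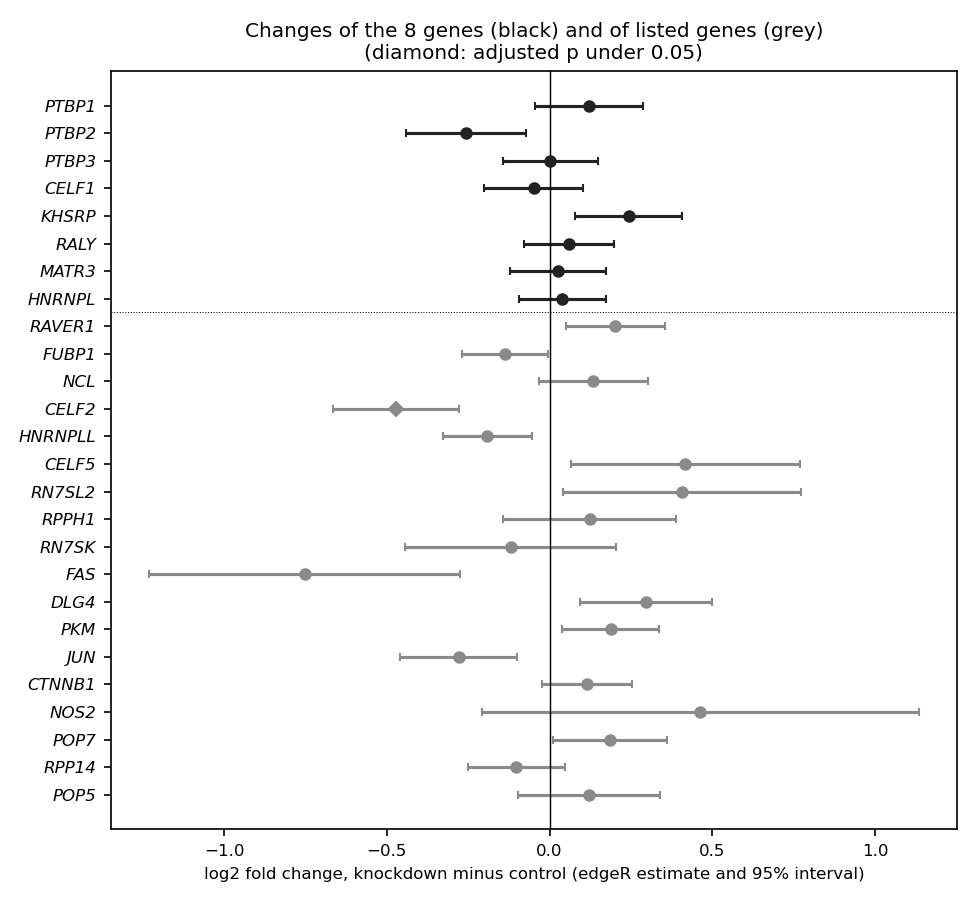
Log2 fold change of knockdown against control (x axis) with its 95% interval for the 8 genes (black) and for the genes named from related lists (grey). Of the 8 genes, the intervals of PTBP2 and KHSRP exclude 0 before adjustment. Those of the grey genes RAVER1, FUBP1, CELF2, HNRNPLL, CELF5, RN7SL2, FAS, DLG4, PKM, JUN and POP7 do so too. CELF2 is the single gene in the plot with an adjusted p under 0.05 (diamond).

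In the lists of related genes 1 gene passed the adjusted test. CELF2, a paralogue of CELF1 that regulates splicing in muscle, brain and T cells, fell. It was at 114.0, 111.8 and 135.5 CPM in the knockdown and 184.7, 155.9 and 160.5 CPM in the controls, and the groups did not overlap. The log2 fold change was -0.47 ± 0.09, with means of 120.4 ± 13.1 and 167.0 ± 15.5 CPM and an adjusted p of 0.0317. The call held in 9 of 15 alternatives. It was lost without knockdown library a (adjusted p = 0.0865) or b (0.129), without control library a (0.192), b (0.111) or c (0.184), and with the span trend removed (0.0683). Of the 10 paralogues listed, 8 were tested, and 1 was called lower and 0 higher, against 0.786% of all genes. At an unadjusted p under 0.05, 1 was higher and 3 lower, CELF2 included (background 14.3%). By CPM, 1 had all knockdown libraries above all controls and 4 all below (background 18.9% for either direction). HNRNPLL, the paralogue of HNRNPL best known from T cell splicing, was at 84.6 ± 2.42 against 96.5 ± 3.96 CPM (log2 fold change -0.19 ± 0.06, adjusted p = 0.201). CELF5 was at 4.63 ± 0.474 against 3.47 ± 0.271 CPM (adjusted p = 0.275), and FUBP1, a relative of KHSRP, at 306.5 ± 5.71 against 337.1 ± 2.45 CPM (adjusted p = 0.330). The list's median log2 fold change was -0.10.

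**Figure D5:**
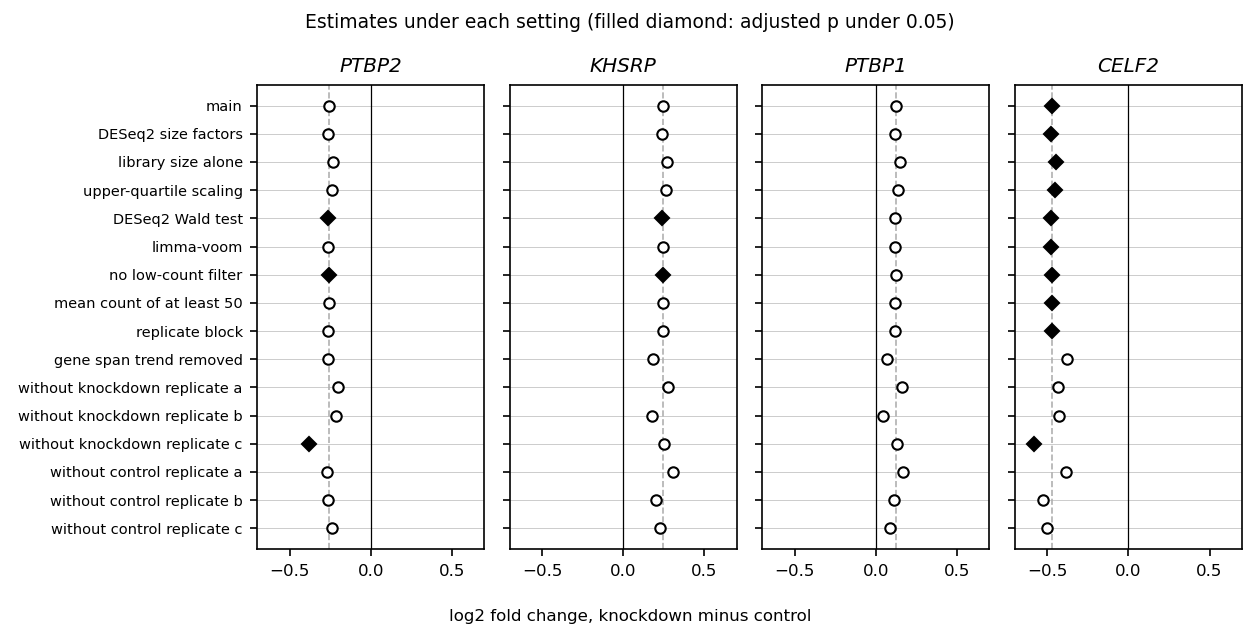
Log2 fold change (x axis) of PTBP2, KHSRP, PTBP1 and CELF2 under the main setting and each alternative (rows), with filled diamonds where the adjusted p is under 0.05. All estimates keep their side of 0, while diamonds come and go for PTBP2, KHSRP and CELF2.

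Among 8 proteins that partner PTBP1 or the compartment, 0 passed the adjusted test in edgeR, DESeq2 or limma-voom, with a median log2 fold change of 0.02. At an unadjusted p under 0.05, 1 was higher and 1 lower, against 14.3% of all genes. RAVER1, a corepressor that binds PTBP1, was at 44.0, 44.5 and 46.5 CPM in the knockdown and 41.2, 39.4 and 36.7 CPM in the controls (log2 fold change 0.20 ± 0.07, adjusted p = 0.221). NCL, the nucleolar protein nucleolin, was at 1116 ± 104 against 1017 ± 22.4 CPM (adjusted p = 0.460). FUBP1 is also on this list.

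Of the RNAs found in the compartment or made by RNA polymerase III, 3 of 10 could be tested and 0 passed in edgeR, DESeq2 or limma-voom, while 1 was higher at an unadjusted p under 0.05 (background 14.3%). RN7SL2, a signal recognition particle RNA, was at 2073, 2593 and 2430 CPM in the knockdown and 2436, 1488 and 1424 CPM in the controls (log2 fold change 0.41 ± 0.17, adjusted p = 0.299). Control library a lay within the range of the knockdown group, and without it the estimate was 0.71 (adjusted p = 0.0414). Without control library b it was 0.29 (0.675) and without control library c 0.27 (0.703), so the value rests on which controls are read. RPPH1, the RNA of RNase P, was at 393.6 ± 55.9 against 361.3 ± 62.5 CPM (adjusted p = 0.692). RN7SK, which holds back transcription elongation, was at 1637 ± 220 against 1778 ± 426 CPM (adjusted p = 0.766). RMRP, the RNA of RNase MRP, was listed at 0 in all 6 libraries, as were RN7SL1 and RNY4, and RNY1, RNY3 and RNY5 had a few counts at most. The control libraries of RN7SL2 spread widely, with an SD of 567 CPM on a mean of 1783. The labels' protocols name a bead size selection, which bears on RNAs this short, and its part in these values was not tested. PNCTR was not analysed here.

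Messages known to be spliced under PTB control were counted as whole genes. Of 9 tested, 0 passed the adjusted test in edgeR, DESeq2 or limma-voom, and at an unadjusted p under 0.05 there were 3 higher and 2 lower (background 14.3%). By CPM, 5 had all knockdown libraries above all controls and 2 all below (background 18.9% for either direction). FAS, a death receptor, was at 2.54, 2.88 and 1.66 CPM against 3.59, 4.57 and 3.85 CPM in the controls (log2 fold change -0.75 ± 0.22, adjusted p = 0.148). DESeq2 gave no adjusted p for FAS, so DESeq2's count of 0 does not cover this gene. DLG4, the synaptic scaffold PSD-95, was at 16.3, 17.4 and 19.6 CPM against 14.4, 14.5 and 14.5 CPM (log2 fold change 0.30 ± 0.09, adjusted p = 0.178). PKM, pyruvate kinase, was at 787.7 ± 44.7 against 691.3 ± 20.3 CPM (log2 fold change 0.19 ± 0.07, adjusted p = 0.242). The median of the list was 0.15.

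Among messages known as decay targets of CELF1 or KHSRP, 5 of 9 were tested and 0 passed in edgeR, DESeq2 or limma-voom, with 1 lower at an unadjusted p under 0.05 (background 14.3%) and a median log2 fold change of 0.11. JUN, a transcription factor with an AU-rich message, was at 44.8, 51.2 and 49.4 CPM in the knockdown and 65.4, 54.7 and 56.4 CPM in the controls (log2 fold change -0.28 ± 0.08, adjusted p = 0.157). CTNNB1, beta-catenin, was at 568.3 ± 19.1 against 525.0 ± 12.5 CPM (adjusted p = 0.448), and NOS2 was near 1 CPM (1.23 ± 0.154 against 0.890 ± 0.131, adjusted p = 0.533). For NOS2, too, DESeq2 gave no adjusted p. JUNB was listed at 0 in all libraries. Of the protein subunits of RNase MRP and RNase P, 10 of 11 were tested and 0 passed with any of these tools, with 1 higher at an unadjusted p under 0.05 (background 14.3%). POP7 was at 27.8 ± 2.29 against 24.5 ± 0.733 CPM (adjusted p = 0.326), RPP14 at 46.8 ± 1.72 against 50.2 ± 2.59 (0.536) and POP5 at 16.3 ± 1.55 against 15.02 ± 1.13 (0.633). RPP21 was listed at 0.

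Markers of cell state were read beside these values. The summed CPM of the pluripotency list was 2424 to 2823 in the knockdown and 2343 to 2394 in the controls, without overlap. LIN28A made up most of this sum, at 1757 ± 141 against 1541 ± 18.2 CPM. NANOG was at 193.9 ± 12.4 against 180.7 ± 5.21 CPM and TDGF1 at 549.3 ± 36.05 against 548.0 ± 13.62. Of the 5 genes listed, 0 passed edgeR's adjusted threshold and 2, POU5F1 and LIN28A, met an unadjusted p under 0.05 (background 14.3%). POU5F1 was at 133.1 ± 16.9 against 99.8 ± 13.3 CPM (adjusted p = 0.0948). The neural list summed to 222.8 to 255.5 against 246.8 to 272.2 CPM, and 1 of its 8 genes was called, against 0.786% of all genes: STMN2, a neuronal microtubule regulator, fell from 19.5 ± 1.04 to 12.1 ± 0.999 CPM (log2 fold change -0.69, adjusted p = 0.00551). The 6 other neural markers that were tested did not pass and had estimates of either sign. MAP2 was at 6.52 ± 1.27 against 4.85 ± 1.06 CPM (log2 fold change 0.42, adjusted p = 0.340). It met an unadjusted p under 0.05 in edgeR (background 14.3%), with overlapping groups. ELAVL4 was at 3.48 ± 0.723 against 3.42 ± 0.684 CPM and SYP at 1.95 ± 0.298 against 1.90 ± 0.0893. TUBB3 was at 210.4 ± 17.7 against 226.0 ± 12.8 CPM (adjusted p = 0.579). ELAVL3 was at 1.24 ± 0.0668 against 1.615 ± 0.369 CPM (log2 fold change -0.38, adjusted p = 0.572). PAX6 was at 1.98 ± 0.119 against 2.09 ± 0.565 CPM (log2 fold change -0.08, adjusted p = 0.915). The part of cell state in the values of the 8 genes was not tested. The naive list (46.2 to 51.5 against 46.9 to 49.9 CPM), the primed list (92.9 to 107.2 against 92.3 to 102.1) and the fibroblast list (86.0 to 95.1 against 90.1 to 103.5) overlapped between groups. The mesendoderm list was at 1.31 to 3.53 against 1.24 to 1.48 CPM and the trophectoderm list at 1.46 to 2.01 against 1.40 to 2.16 CPM, both overlapping. The highest mesendoderm sum was that of knockdown library a. There GATA4 was at 1.69 CPM, against 0.719 and 0.554 in knockdown libraries b and c, and GATA6 at 0.846, against 0.150 and 0.277. At an unadjusted p under 0.05 (background 14.3%), DNMT3L of the naive list was at 1.41 ± 0.0510 against 2.33 ± 0.700 CPM (adjusted p = 0.258) and EOMES of the mesendoderm list at 0.468 ± 0.0673 against 0.208 ± 0.0757 CPM (adjusted p = 0.304), both with groups that did not overlap. COL1A2 of the fibroblast list also met that level, with overlapping groups (67.0 ± 6.08 against 77.0 ± 5.28 CPM, adjusted p = 0.289). THY1, of the primed list, was listed at 0, and CD24 was not analysed here.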

How the data were processed

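The authors deposited raw counts per gene symbol for 6 libraries. Per the submitters' processing notes, the tools were Trimmomatic 0.39, STAR 2.7.8a and featureCounts of Subread 2.14.2, on hg38. The annotation, strand setting and handling of multiply aligned reads were not given in the sources used here. Genes were filtered by filterByExpr (19721 kept, holding 99.9% of counts), scaled by TMM and tested with edgeR 4.0.16 (R 4.3.3, glmQLFit and glmQLFTest, group as the only term, two-sided, Benjamini-Hochberg over all genes kept, threshold 0.05). The biological coefficient of variation was 0.103. CPM used TMM-scaled library sizes. Ratios added 0.5 to each count and were compared by exact permutation (SciPy 1.17.1). Alternatives covered scaling, DESeq2 1.42.0, limma 3.58.1 (voom), filters, the replicate letter as a block, each library left out, and a spline on gene span (5 degrees of freedom, 81% of genes). Rows were matched to GENCODE 29 by name (31499) or older symbol (1337), and HNRNPLL was counted under its older symbol. The 8 genes and the lists were chosen with earlier results of these data known. From each list, genes past the threshold and up to 3 others with the smallest p were named, and for likeness the 2 closest genes per member. Markers were given as list sums, and single markers were picked after their values were seen. The code was tested on simulated counts.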

Additional observations from a re-analysis of the deposited data

How the results depend on the processing

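PTBP2, KHSRP, PTBP1, CELF1 and RALY kept their direction in 15 of 15 alternatives. PTBP3 changed sign with DESeq2 size factors (log2 fold change -0.002762) and DESeq2's Wald test (-0.002736), and with 1 library left out it ran from -0.031 to 0.045. MATR3 gave -0.01 (-0.01442) and HNRNPL -0.01 (-0.01195) with the span trend removed, and MATR3 ran from -0.00671 to 0.05336 with 1 library left out. Likewise RN7SK ran from -0.3012 to 0.03362. The median of the 8 genes was -0.004345 with the span trend removed. Of the 8 genes, 2 passed with DESeq2's Wald test, 2 without the low-count filter and 0 to 1 with 1 library left out.

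Over all genes, 155 calls (27 higher, 128 lower) became 536 with DESeq2's Wald test, 1064 without the filter, 238 with the span trend removed and 26 to 1309 with 1 library left out. Higher calls were 56 of 158 with library size alone and 45 of 157 with the upper quartile. Without the filter the calls were 2 paralogues, 1 compartment RNA, 1 PTB target and 1 decay target. With the span trend removed, 0 paralogues and 1 decay target (JUN) were called. With 1 library left out, calls ran from 0 to 1 for partners, 0 to 2 for paralogues, 0 to 1 for compartment RNAs and 0 to 2 for PTB targets.

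The labels do not say whether the letters pair knockdown with control libraries. Correlations of deviations by letter were 1.23e-05, 0.116 and -0.0251, and with 3 libraries in each group they cannot decide it. With the replicate block, 393 genes and 0 of the 8 were called, and PTBP2 had an adjusted p of 0.0847. The log2 differences of the PTBP2 and PTBP3 ratios to PTBP1 stayed at -0.38 and -0.12. An exact test that flips the signs of the 3 within-letter differences gave p = 0.25 and 0.50, and 0.25 is the smallest it can give. Leaving out 1 library, the PTBP2 ratio ran from -0.51 to -0.27 on the log2 scale. A count of 0 allows up to 0.12 CPM (3 counts), counting error only.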
